A study of Mus musculus with 2 samples.

Results

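The genes described here build and control striated muscle, the cross-striated muscle of the skeleton and the heart, in RNA from whole mouse stomachs. The members were a fixed list of 44 genes, chosen by name and not by their level, and all 44 were found among the 43346 genes of the tables. They comprised 21 genes of skeletal muscle, 9 of heart muscle, 8 used by both muscle types, and 6 regulators of muscle cell fate. The data came from 1 group of 2 biological replicates, both of strain B6NCrl at embryonic day 15.5, with no treatment and no second genotype. Replicate 1 pooled stomachs of 78 embryos and replicate 2 of 62, and both pools held male and female embryos. Whole organs were pooled, so a value describes the dissected pieces together and not a cell type, and fewer cells of a type cannot be told apart from less RNA per cell.

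The sarcomere, the contractile unit of striated muscle, consists of thick filaments of myosin and thin filaments of actin, troponin and nebulin, which are held between Z discs by alpha-actinin and titin. Calcium released from the sarcoplasmic reticulum binds troponin C and starts contraction. Skeletal muscle fate is set by the basic helix-loop-helix factors Myf5, Myod1, Myf6 and myogenin, which bind DNA at E-boxes. Developing muscle fibres use embryonic and neonatal myosins before the adult fast forms appear. The wall of the stomach is made of smooth muscle, which has no sarcomeres, whereas the oesophagus of the mouse acquires striated muscle before birth, and the diaphragm and heart lie close by.

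Depth was similar, with expected counts that summed to 44038879 in replicate 1 and 45625704 in replicate 2, and to 43209506 and 44257493 on genes. TPM, a relative abundance that sums to a fixed total in each library, is corrected for gene length and serves here to compare levels between genes. Smooth muscle markers, which check the labelled organ, were abundant: the 12 markers summed to 4636 TPM in replicate 1 and 4716 TPM in replicate 2, with all 12 detected. Markers of other cell types were read too. Their sums in replicates 1 and 2 were 7232 and 9923 TPM for exocrine pancreas (8 genes), 2298 and 1112 TPM for liver (9 genes), 2982 and 1581 TPM for squamous epithelium (10 genes), and 41078 and 23024 TPM for red cells (8 genes). No molecular identifiers were recorded, so copies made by PCR are not independent, and every interval below covers counting error only.

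Striated muscle RNA was present at low levels. Relative to the bulk of genes most members, though not all, were higher in replicate 2, a direction that depends on the scaling, as given below. Of the 44 members 27 reached 1 TPM in both libraries, the level called detected here: 13 of 21 skeletal, 6 of 9 cardiac, 7 of 8 shared members and 1 of 6 regulators. The median member had 1.52 and 3.07 TPM in replicates 1 and 2, while the median protein-coding gene was at 5.70 and 5.72 TPM. Summed over members, the TPM was 188 and 267. By class, the medians in replicates 1 and 2 were 1.61 and 3.49 TPM for skeletal, 2.16 and 2.85 TPM for cardiac, 2.72 and 3.36 TPM for shared members, and 0.195 and 0.30 TPM for regulators. The log2 ratio of the skeletal to the cardiac median was -0.07 ± 0.51 (SD, n = 2), negative in replicate 1 (-0.42) and positive in replicate 2 (0.29), so the order of these classes did not hold across the libraries. The log2 ratio of the skeletal to the regulator median was 3.29 ± 0.35 (SD, n = 2), positive in both libraries.

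**Figure D1:**
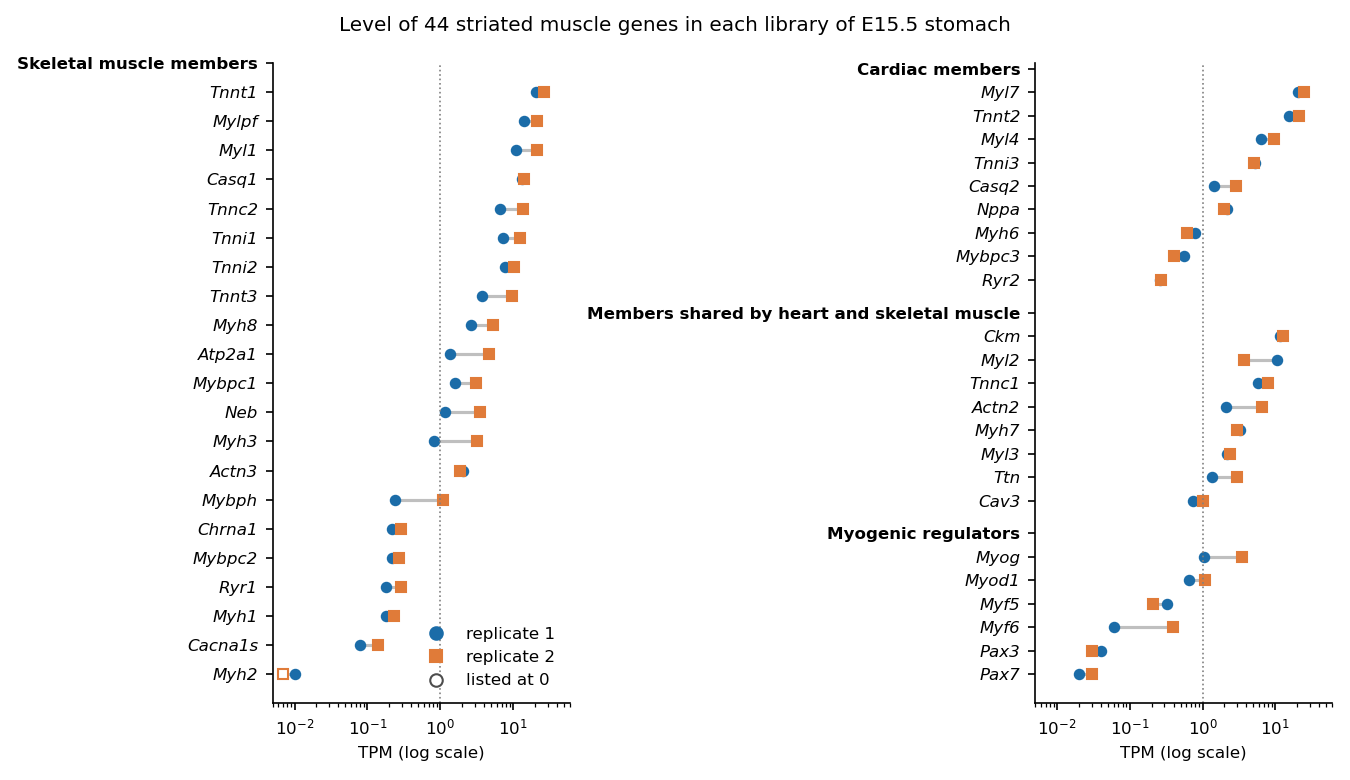
TPM of each of the 44 members on a log axis, with circles for replicate 1 and squares for replicate 2, sorted within each class by the mean of both. The dotted line marks 1 TPM, and 27 members lie at or above it in both libraries; Myh2 is listed at 0 in replicate 2 and drawn as an open symbol at the left edge.

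The skeletal members were led by troponins, myosin light chains and the calcium store protein Casq1, and the myosins among them were the embryonic and neonatal forms. Tnnt1, slow skeletal troponin T, which ties the troponin complex to tropomyosin, led the class with 20.86 TPM in the first pool (replicate 1) and 26.91 TPM in the other. Mylpf, the fast regulatory light chain of myosin, had 14.11 and 21.66 TPM, and Myl1, the fast essential light chain, had 11.09 and 21.68 TPM. Both light chains were therefore higher in replicate 2 and stood among the most abundant members in each library. Casq1, the calcium-binding protein of the skeletal sarcoplasmic reticulum, had 13.44 and 14.27 TPM and differed little between the libraries. The remaining troponins followed, with Tnnc2, the fast calcium sensor, at 6.66 and 13.72 TPM, Tnni1, slow inhibitory troponin, at 7.21 and 12.41 TPM, and Tnni2, its fast counterpart, at 7.79 and 10.32 TPM. Tnnt3, fast troponin T, was at 3.77 and 9.65 TPM. All of these troponins had their higher value in replicate 2.

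Among the myosin heavy chains of skeletal muscle, the motor proteins of the thick filament, Myh8 (neonatal) had 2.64 TPM in replicate 1 and 5.36 TPM in replicate 2. Myh3 (embryonic) had 0.82 and 3.16 TPM. The adult fast genes lay far lower: Myh1 had 0.18 and 0.23 TPM, from 32.61 and 28.04 counts, and Myh2 had 2.44 and 0 counts, at or under the floor of 3 counts in both libraries. The 4 genes lie in 1 cluster on chromosome 11 (mm10), from Myh3 at 67078300 to 67102291 through Myh2 (67171027 to 67197517) and Myh1 (67200052 to 67224575) to Myh8 at 67277124 to 67308634. They are near-identical over parts of their length and share reads, which the authors' estimates divided among them, so the counts of single heavy chains, Myh1 and Myh2 above all, are uncertain.

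The remaining skeletal members of the filaments were lower. Neb, nebulin, the giant protein along the thin filament, had 1.15 and 3.49 TPM. The myosin-binding protein Mybpc1 (slow type) had 1.61 and 3.15 TPM, and its fast counterpart Mybpc2 had 0.22 and 0.27 TPM. Mybph, a further myosin-binding protein, had 0.24 and 1.08 TPM. Replicate 2 held the higher value for each of these 4, by a wide margin for Mybph and Neb and a narrow one for Mybpc2. Actn3, the alpha-actinin of fast fibres, did not follow, with 2.04 and 1.89 TPM. Of the genes of calcium handling and of the nerve signal, the calcium pump Atp2a1 had 1.38 and 4.63 TPM. The release channel Ryr1 had 0.18 and 0.29 TPM, the voltage sensor Cacna1s 0.08 and 0.14 TPM, and Chrna1, a subunit of the acetylcholine receptor of the muscle endplate, 0.22 and 0.29 TPM.

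Cardiac members were found too, led by genes of the atrium and of troponin. Myl7, the atrial regulatory light chain, was highest with 20.65 and 25.02 TPM in replicates 1 and 2. Tnnt2, cardiac troponin T, had 15.27 and 21.05 TPM. Embryonic skeletal muscle also uses Tnnt2 and Myl4, the atrial essential light chain, which had 6.39 and 9.64 TPM. Tnni3, the cardiac inhibitory troponin, had 5.30 and 5.11 TPM, Nppa, the atrial natriuretic hormone, 2.16 and 1.98 TPM, and Casq2, the cardiac calsequestrin, 1.43 and 2.85 TPM. Tnni3 and Nppa thus had nearly equal values in both libraries, and Casq2 did not. Below 1 TPM were Myh6, the atrial alpha heavy chain (0.78 and 0.61 TPM), Mybpc3, the cardiac myosin-binding protein (0.55 and 0.41 TPM), and Ryr2, the cardiac release channel (0.26 and 0.27 TPM).

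Members used by both muscle types ranged from 0.73 to 12.91 TPM. Ckm, the muscle creatine kinase, had 11.43 and 12.91 TPM, and Tnnc1, the slow and cardiac calcium sensor, had 5.85 and 7.98 TPM. Myl2, the slow and ventricular regulatory light chain, had 10.60 TPM in replicate 1 and 3.73 TPM in replicate 2, the reverse of most other members. Actn2, the alpha-actinin of all striated muscle, had 2.11 and 6.50 TPM, and titin (Ttn), the molecular spring, 1.36 and 2.99 TPM. Both Z-disc proteins were higher in replicate 2. Myh7, the slow and ventricular beta heavy chain, had 3.24 and 2.96 TPM, Myl3, the slow essential light chain, 2.20 and 2.40 TPM, and Cav3, the caveolin of the muscle membrane, 0.73 and 1.03 TPM.

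Of the regulators only myogenin (Myog), which drives the final differentiation of muscle cells, was detected in both libraries, with 1.04 TPM from 45 counts in replicate 1 and 3.49 TPM from 151 counts in replicate 2. Myod1, a determination factor, had 0.66 and 1.07 TPM (36 and 58 counts). Myf5, the earliest of these factors, had 20 and 13 counts, and Myf6 had 2 and 14. The progenitor factors Pax3, of migrating limb and trunk precursors, and Pax7, of later precursors and satellite cells, had 5 and 4 counts and 3 and 5 counts. Pax3 and Pax7 were thus at 0.02 to 0.04 TPM, and too few reads were present to compare the libraries for either.

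To ask how far the pools differed, each gene's counts were compared between the libraries. A gene was called when the adjusted p of a two-sided exact binomial test was below 0.05 and the log2 ratio of replicate 2 to replicate 1 was at least 1 in size. This test compares these 2 libraries and not conditions, since there is 1 pool on each side. Summed counts of both libraries reached 10 for 41 members. Of these, 12 were called higher in replicate 2 and 1 lower, while of the 20918 genes tested 6.72% were called, 0.808% higher and 5.91% lower. With spike-in totals as sizes, 5 members were called higher and 4 lower. The median log2 ratio was then -0.27 for all members and -0.68 over all genes tested. The share of all genes called with these sizes is not given here. At an adjusted p below 0.05 without the limit of 2-fold, 21 members were higher and 1 lower, against 15.2% and 16.8% of all genes tested (32.0% in either direction). Members with at least 20 counts numbered 40, of which 32 had the higher value in replicate 2, with a median log2 ratio of 0.41. Over all 19303 genes with as many counts the median was 0.0015, and 50.3% had the higher value in replicate 2.

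The difference was spread unevenly over the classes. The median log2 ratio was 0.73 for skeletal members (18 of 20 higher in replicate 2), 0.27 for shared members (7 of 8) and 0.05 for cardiac members (5 of 9). The 3 regulators with 20 counts or more had a median of 0.64, with 2 higher. These ratios are relative to the bulk of genes: with spike-in totals as sizes every log2 ratio fell by 0.68, and the medians were 0.05, -0.41, -0.63 and -0.04 for skeletal, shared, cardiac and regulator members. The differences between classes were not tested. Calls went to 7 of 20 skeletal, 1 of 9 cardiac and 3 of 8 shared members, and to 2 of 4 regulators. A stricter comparison set each gene against the typical difference between the pools, with the common dispersion of the edgeR exact test (biological coefficient of variation 0.197). That dispersion comes from the same 2 libraries, so it describes which genes stand out from the usual spread. It called 5 members higher and 0 lower, against 0.215% and 3.07% of all genes tested (3.28% in either direction).

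Those 5 were an embryonic myosin, a calcium pump, a myosin-binding protein, a Z-disc protein and a regulator. Myh3 had 150.88 counts in replicate 1 and 580.42 in replicate 2, a log2 ratio of 1.90 (95% interval 1.64 to 2.17), with adjusted p of 1.33e-55 by the exact binomial test and 0.00097 by the edgeR exact test. Actn2 had 177 and 580 counts, a log2 ratio of 1.67 (1.42 to 1.92; adjusted p 1.77e-46 by the exact binomial test and 0.0058 by edgeR). Both genes were over 3-fold higher in replicate 2. Atp2a1 had 77.89 and 261.03 counts, a log2 ratio of 1.69 (1.33 to 2.08), and Myog had the same ratio (1.22 to 2.22), with edgeR adjusted p of 0.0083 and 0.016. Mybph had 12.93 and 58 counts, a log2 ratio of 2.07 (1.23 to 3.11; edgeR adjusted p 0.015). Myog and Mybph rest on fewer reads than the others, which shows in their wider intervals.

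**Figure D2:**
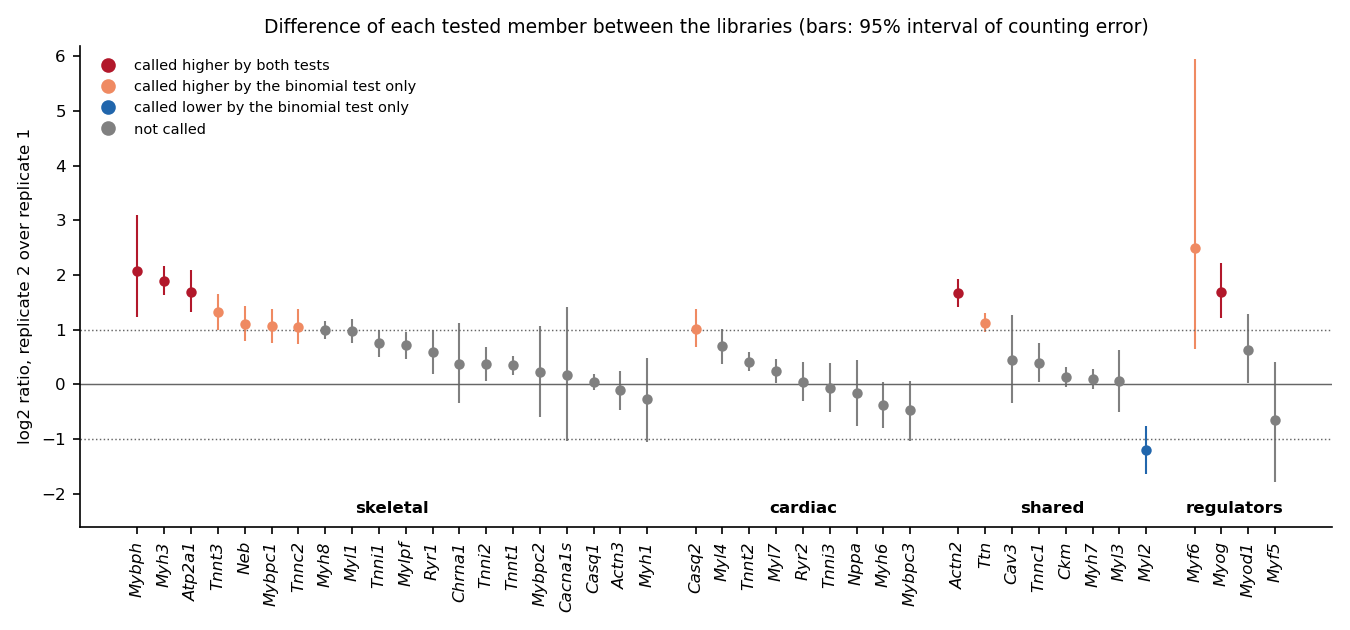
Log2 ratio of replicate 2 to replicate 1 for the 41 tested members, by class, with bars for the 95% interval of counting error. Dark red points were called higher by both tests, orange by the binomial test only, the blue point (Myl2) was called lower by the binomial test only, and dotted lines mark the 2-fold limit.

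The 7 other members called higher by the exact binomial test missed the edgeR threshold. Tnnt3 had 105 and 270 counts and a log2 ratio of 1.32 (edgeR adjusted p 0.083). Titin, with 385 and 869 counts, had a log2 ratio of 1.13 (edgeR adjusted p 0.161), and Neb, with 119 and 265, had 1.11 (0.246), a call that did not hold with counts of protein-coding transcripts only. Mybpc1 (1.06), Tnnc2 (1.05) and Casq2 (1.02) lay just past 2-fold, with edgeR adjusted p from 0.291 to 0.40, and Myf6 reached 2.49 from 2 and 14 counts (0.239). Just inside the limit were Myh8 (0.99, with 484.98 and 994.69 counts) and Myl1 (0.97, with 253 and 511 counts), whose exact binomial adjusted p were 5.89e-36 and 5.22e-18. By the exact binomial test, whether these 2 count as called thus turns on the 2-fold limit and not on the depth. Their edgeR adjusted p were 0.327 and 0.395, so the edgeR exact test would not call them without that limit either. Smaller ratios with an adjusted p below 0.05 by the exact binomial test were those of Tnni1 (0.75), Mylpf (0.71), Myl4 (0.69), Ryr1 (0.59), Tnnt2 (0.42), Tnni2 (0.38) and Tnnt1 (0.35).

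For 19 tested members the adjusted p of the exact binomial test was 0.05 or more. Several of these had narrow intervals around 0. Casq1 had 680 and 723 counts, with a log2 ratio of 0.05 (-0.11 to 0.20), and Ckm had 464.19 and 527 counts, with 0.14 (-0.04 to 0.32). Myh7 had 500.07 and 551.25 counts and a log2 ratio of 0.10 (-0.08 to 0.28). For these 3 abundant genes the intervals exclude the ratios of Myh3 and Actn2. Ryr2 (0.05, from -0.30 to 0.40), Tnni3 (-0.06, from -0.51 to 0.39) and Actn3 (-0.11, from -0.47 to 0.25) were also near 0. Negative ratios were found for Myh6 (-0.38), Mybpc3 (-0.47), Nppa (-0.16), Myh1 (-0.28) and Myf5 (-0.64), each with an interval that includes 0. The intervals of Myl3 (0.06), Cav3 (0.45), Chrna1 (0.38), Mybpc2 (0.23) and Cacna1s (0.17) also include 0 and were wide, and differences within them were not detectable at this depth. Myod1 (0.64), Tnnc1 (0.40) and Myl7 (0.24) had counting intervals just above 0, and adjusted p of 0.102, 0.076 and 0.084 over all genes tested.

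Myl2 was the 1 member called lower in replicate 2, with 145 and 65 counts and a log2 ratio of -1.19 (-1.64 to -0.77; adjusted p 1.16e-07 by the exact binomial test and 0.218 by edgeR). The transcript tables placed 74.05 of the counts of replicate 1 on Myl2-210, a processed transcript of 467 bases without a reading frame, and 0 counts in replicate 2. The protein-coding transcript Myl2-201 had 70.95 and 52.10 counts. With counts of protein-coding transcripts only, a comparison added after the values were seen, Myl2 had a log2 ratio of -0.31 (adjusted p 0.40) and was not called. The same comparison called 12 members higher, with Myh8 (1.02) gained and Neb (0.98) lost.

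Reads shared with other genes bear on some of these values. The strand setting of the counting was not given in the sources used here, so reads of overlapping genes on opposite strands cannot be told apart. Exons of 20 members overlap exons of another gene in GENCODE M21, 19 of them on the opposite strand. For most, the partner had few or no counts. Tnni3 shares 86 of its 2063 exonic bases with Dnaaf3 on the same strand, a gene of 69.9 and 89.67 counts. Tnnc2 shares 592 of its 800 exonic bases with Ube2c, a cell cycle gene of 9403 and 9609 counts. Mybph shares 1162 of 2329 bases with the adenosine receptor gene Adora1 (1150 and 1398 counts), Atp2a1 shares 763 of 3477 with Rabep2 (1383 and 1455 counts), and Myl3 shares 95 of 2044 with Pth1r (1266 and 1261 counts). As a ratio between the libraries, the partners' counts differed far less than those of Tnnc2, Mybph and Atp2a1. In number of reads, Ube2c and Adora1 changed by more than Tnnc2 and Mybph, and Rabep2 by less than Atp2a1. The part of shared reads in the members' differences was not tested. Without Tnnc2, Mybph, Atp2a1 and Myl3, 9 members were called higher and the skeletal median log2 ratio was 0.59.

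Start regions are shown for the 5 members that both tests called higher in replicate 2, as the members with the most firmly called difference, a choice made on that difference. They are the bases before the transcription start in RefSeq (GRCm38.p6, the build mm10), 5′ to 3′ in the sense of the gene, with E-boxes (CANNTG, which reads alike on both strands) in capitals. Each holds 250 bases except that of Atp2a1, which was shortened by 35 bases that GENCODE annotates as exon, to 215. GENCODE also annotates as exon 28 bases of the Actn2 window and 15 of the Myog window, next to the RefSeq start, and these were kept.
Myog, chr1:134289754-134290003, plus strand: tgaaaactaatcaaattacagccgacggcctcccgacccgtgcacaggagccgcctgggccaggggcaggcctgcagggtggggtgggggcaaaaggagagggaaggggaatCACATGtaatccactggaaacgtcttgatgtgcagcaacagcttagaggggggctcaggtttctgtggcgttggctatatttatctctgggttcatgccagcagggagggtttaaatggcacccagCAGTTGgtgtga
Myh3, chr11:67078050-67078299, plus strand: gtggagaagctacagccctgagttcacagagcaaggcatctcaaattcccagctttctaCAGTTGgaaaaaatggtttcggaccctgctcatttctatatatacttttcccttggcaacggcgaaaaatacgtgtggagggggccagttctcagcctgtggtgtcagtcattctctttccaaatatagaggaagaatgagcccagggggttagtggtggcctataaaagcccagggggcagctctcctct
Actn2, chr13:12340733-12340982, minus strand: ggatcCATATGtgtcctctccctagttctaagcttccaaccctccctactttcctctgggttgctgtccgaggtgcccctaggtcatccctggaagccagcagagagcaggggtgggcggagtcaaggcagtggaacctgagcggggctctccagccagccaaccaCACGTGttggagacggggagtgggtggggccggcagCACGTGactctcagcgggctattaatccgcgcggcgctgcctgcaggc
Atp2a1, chr7:126463109-126463323, minus strand: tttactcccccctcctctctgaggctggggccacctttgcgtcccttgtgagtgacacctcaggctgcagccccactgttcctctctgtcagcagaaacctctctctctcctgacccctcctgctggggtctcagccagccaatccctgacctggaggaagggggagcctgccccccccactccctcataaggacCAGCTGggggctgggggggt
Mybph, chr1:134193198-134193447, plus strand: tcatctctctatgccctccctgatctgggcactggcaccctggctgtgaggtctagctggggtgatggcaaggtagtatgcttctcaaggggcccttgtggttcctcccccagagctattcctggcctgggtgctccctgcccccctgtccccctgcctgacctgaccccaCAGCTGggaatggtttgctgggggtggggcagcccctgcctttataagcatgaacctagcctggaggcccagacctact
In these windows Myog held CAGTTG starting 12 bases before the start, within the annotated exon bases, and CACATG at 138 bases, Myh3 held CAGTTG at 191, Atp2a1 held CAGCTG at 55 and Mybph held CAGCTG at 79. Actn2 held CACGTG at 48 and at 84 bases and CATATG at 245. A match is a description of the letters and not a site shown to be bound.

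Start windows of 250 bases were found for 37 members (41 windows, some overlapping), among 32851 windows of 27025 genes. CANNTG was in 85.4% of the members' windows and in 66.2% of all windows. CAGCTG, an E-box form that reads alike on both strands and is counted within CANNTG, was in 16 of 41 members' windows (39.02%) and in 13.0% of all windows. By class it was in 10 of 18 skeletal, 3 of 10 cardiac and 3 of 10 shared windows and in 0 of 3 regulator windows. CAGGTG, searched on both strands and also part of CANNTG, was in 29.3% of the members' windows and 17.2% of all. The MEF2 site, searched on both strands, was in 5 windows (12.2%, against 2.92% of all), those of Ttn, Mybpc3, Casq2, Myh1 and Myh8. The CArG box was in 2 windows (4.88%, against 1.47%), those of Myl3 and Myl7, and TATAAA, on either strand, in 8 (19.5%, against 12.4%). Windows with CAGCTG belonged to members with and without a call. Atp2a1, Mybph and Mybpc1 were called higher, and Myl2 was called lower. Casq1, Ckm, Mylpf, Chrna1, Myl1, Tnni1, Tnnt2, Cacna1s, Mybpc3, Nppa and Cav3 were not called. Calls were not compared between members with and without the motif.

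Within protein families the shares of TPM showed which form prevailed. Of the 6 myosin heavy chains, whose TPM summed to 7.67 in replicate 1 and 12.32 in replicate 2, slow Myh7 held 42.2% and 24.03% and neonatal Myh8 34.4% and 43.5%. Embryonic Myh3 held 10.7% and 25.6%, atrial Myh6 10.2% and 4.95%, and adult fast Myh1 2.35% and 1.87%. Myh7 thus led in replicate 1 and Myh8 in replicate 2. Of the 3.24 TPM of Myh7 in replicate 1, 0.56 came from 4.82 counts on the 377-base transcript Myh7-203, listed at 0 in replicate 2. The main transcript, Myh7-201, had 2.62 and 2.92 TPM. Part of the lead of Myh7, and of the fall in its share, therefore rests on few counts. In both libraries the developmental forms Myh3 and Myh8 were each above the adult fast forms Myh1 and Myh2. Myh7 lies beside Myh6 on chromosome 14 (Myh7 at 54970684 to 54994626, Myh6 at 54941921 to 54966927) and is close to it in sequence, and both have fractional counts.

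Slow and fast forms of each troponin subunit were present, in unequal amounts for troponin T. Slow Tnnt1 held 52.3% and 46.7% of troponin T, cardiac Tnnt2 38.3% and 36.5% and fast Tnnt3 9.45% and 16.8%. For troponin I, slow Tnni1 held 35.5% and 44.6%, fast Tnni2 38.4% and 37.1% and cardiac Tnni3 26.1% and 18.4%. Fast Tnnc2 held 53.2% and 63.2% of troponin C, and Tnnc1 the rest. The order of the T and C forms was the same in both libraries, and that of Tnni1 and Tnni2 was not. Among the 6 myosin light chains atrial Myl7 was first in both libraries (31.7% and 29.7%), followed in replicate 1 by Mylpf (21.7%) and in replicate 2 by Myl1 (25.8%) and Mylpf (25.7%). Actn2 held 50.8% and 77.5% of the sarcomeric alpha-actinin, beside Actn3. Casq1 held 90.4% and 83.4% of calsequestrin, and Mybpc1 67.6% and 82.2% of the myosin-binding protein C forms.

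**Figure D3:**
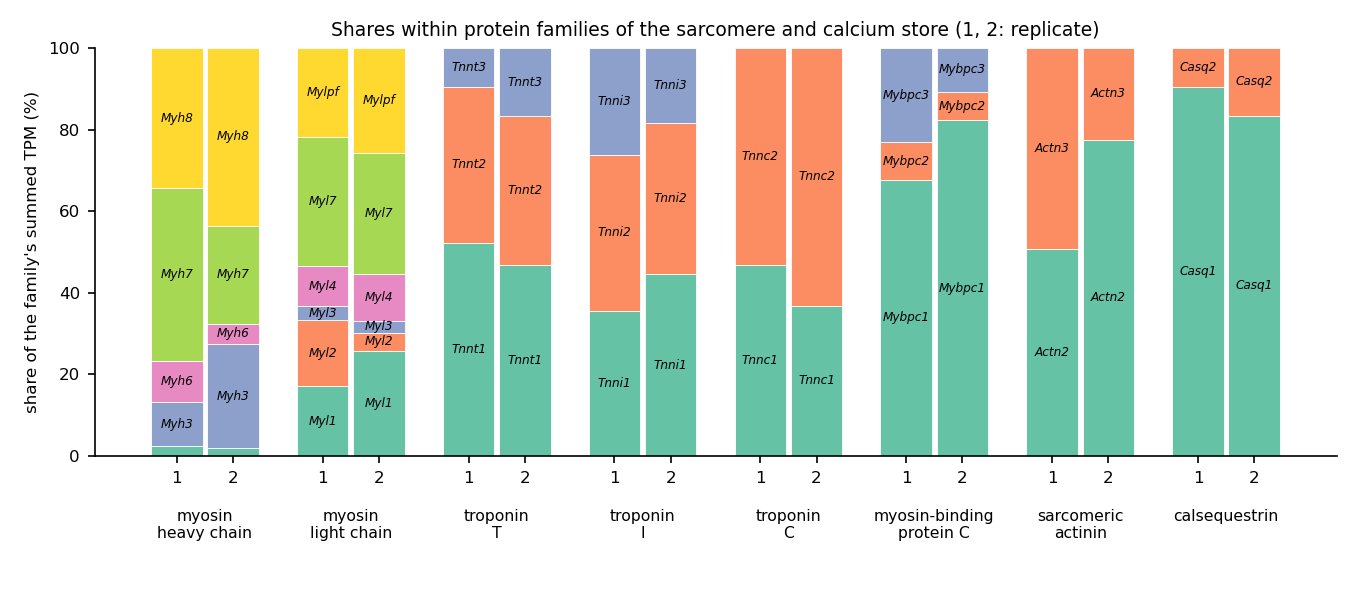
Share of each family's summed TPM held by each gene, in percent, with 1 stacked bar for replicate 1 and 1 for replicate 2. Myh3 takes 10.7% and 25.6% of the myosin heavy chains and Myh7 42.2% and 24.03%; the unlabelled strip at the base of that family is Myh1.

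The transcript tables allowed a look at the forms of the members that had at least 100 counts in each library. There were 23 such members, 21 of them with several annotated transcripts, and 18 of the 21 had the same leading transcript in both libraries, or 16 by posterior mean shares. The 18 include Ryr2, whose 2 transcripts tied at 50% in replicate 1, while Ryr2-201 held 100% in replicate 2. Myl1 makes a long and a short essential light chain from separate start sites. The short form, Myl1-202, held 68.8% and 63.2% of the gene's TPM and the long form, Myl1-201, 18.9% and 27.1%. The short form was thus the larger in both libraries. The readings start as follows (GENCODE M21 transcripts, from the first coding base, with the part that differs in capitals and the shared part in lower case).
Myl1-201: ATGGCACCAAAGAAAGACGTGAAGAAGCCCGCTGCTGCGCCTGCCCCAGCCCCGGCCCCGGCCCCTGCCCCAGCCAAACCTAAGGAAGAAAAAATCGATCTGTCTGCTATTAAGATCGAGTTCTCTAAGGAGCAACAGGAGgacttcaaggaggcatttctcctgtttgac
Myl1-202: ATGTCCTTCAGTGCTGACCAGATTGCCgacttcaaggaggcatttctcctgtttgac
The long form has 141 bases of its own and a coding length of 564 bases (188 codons), and the short form has 27 and 450 (150 codons).

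Troponin T genes differ between their transcripts in small exons near the start of the reading frame. Tnnt1-201 led in replicate 1 with 35.1% and had 20.4% in replicate 2, while Tnnt1-206 had 25.3% and 36.1% and led in replicate 2. Their coding parts, of 783 and 750 bases, differ by 33 bases (11 codons), shown in capitals, and the transcripts also differ outside the reading frame.
Tnnt1-201: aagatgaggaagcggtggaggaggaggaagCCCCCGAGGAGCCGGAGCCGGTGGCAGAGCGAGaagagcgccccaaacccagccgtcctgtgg
Tnnt1-206: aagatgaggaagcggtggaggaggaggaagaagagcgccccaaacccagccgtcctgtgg
The leading forms of Tnnt3 were Tnnt3-215 (18.6% and 40.4%) and Tnnt3-202 (17.7% and 28.1%), whose coding parts differ by 15 bases within a repetitive stretch, in capitals here at 1 of the placements that fit.
Tnnt3-202: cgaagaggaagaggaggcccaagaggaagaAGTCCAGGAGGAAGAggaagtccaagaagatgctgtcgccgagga
Tnnt3-215: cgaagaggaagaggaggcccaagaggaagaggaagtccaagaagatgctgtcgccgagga
In Tnnt2 the same transcript, Tnnt2-207, led in both libraries with 43.2% and 52.7%. The next held 21.2% and 21.3%.

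Transcript shares of other members were less steady. Mybpc1-201 held 45.1% in replicate 1 and 20.1% in replicate 2, and Mybpc1-202 17.2% and 50.1%. Myl4 was led by Myl4-207 (34.9%) in replicate 1, which was listed at 0 in replicate 2, and by Myl4-202 (57.6%) in replicate 2. Myh3-202 led in both libraries, with 88.7% and 55.5%. Neb and Ttn are spread over transcripts of very unequal length: of the TPM of Neb only 13.9% and 15.5% lay on protein-coding transcripts, but 73.8% and 67.7% of its counts did. The 1000-base processed transcript Neb-204 held 66.0% and 79.5% of the TPM of Neb. The TPM of Neb, and of Ttn, where a 2159-base transcript held 49.5% and 52.1%, is therefore set largely by short transcripts. Similar limits hold for 2 members with fewer than 100 counts in replicate 1. The 681-base Atp2a1-202 held 55.55% and 55.81% of the TPM of Atp2a1. Of the TPM of Tnni3, 49.4% and 45.9% lay on protein-coding transcripts. Transcript values are estimates from shared reads, and no test was made of them.

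**Figure D4:**
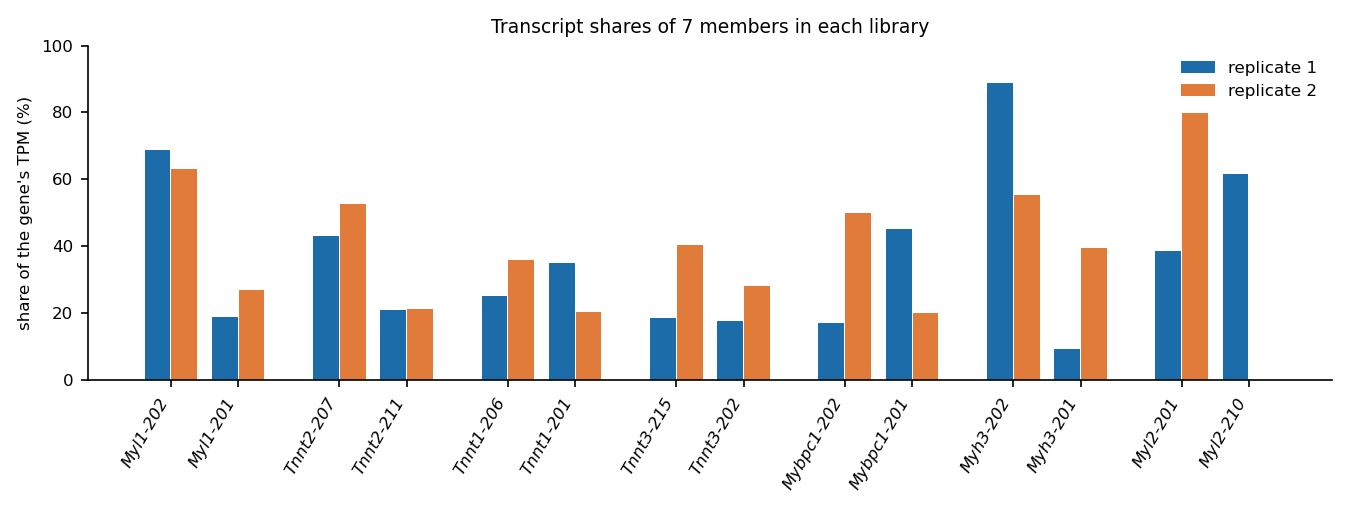
Share of the gene's TPM, in percent, on 2 transcripts each of 7 members, with blue bars for replicate 1 and orange bars for replicate 2. Myl1-202 is above Myl1-201 in both libraries, whereas the order of Tnnt1-206 and Tnnt1-201, and of Mybpc1-202 and Mybpc1-201, is reversed between them; Myl2 had fewer than 100 counts in replicate 2.

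Other genes of striated muscle were read from lists of the same kind. Of 30 further sarcomere genes 7 were detected and 26 tested, and 6 were called higher in replicate 2 and 0 lower, with a median log2 ratio of 0.70 over 24 genes. The cardiac and skeletal actins led this list, Actc1 with 43.6 and 71.5 TPM and Acta1 with 15.1 and 39.1 TPM. Acta1, the main actin of skeletal muscle, was called with a log2 ratio of 1.33 (623 and 1617 counts), as were Myot of the Z disc (2.07), Klhl41 (1.75), Myoz1 (1.61), the kinase Mylk4 (2.07) and Trim54 (3.80, from 1 and 21 counts). Smpx, next in level, had 4.37 and 7.51 TPM and was not called. By the edgeR exact test Acta1, Myot and Trim54 were called. The adult genes Myh4 (0 and 4.04 counts) and Myh13 (5.18 and 4.15 counts) were near the floor.

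Among 13 genes of the triad and calcium handling 2 were called higher, Sln, which inhibits the calcium pump (1.67, with 44 and 145 counts), and Trdn (2.39, with 2 and 13 counts), and the median log2 ratio was 0.48 over 9 genes. By the mean of both libraries Sln, Srl and Jph2 led the list. In that order they had 3.43 and 11.2, 7.61 and 11.1, and 10.4 and 10.7 TPM. In replicate 1, however, Cacnb1 (5.95 TPM) and Pln (4.61 TPM) were above Sln. At the neuromuscular junction the fetal receptor subunit Chrng was called (2.15, with 9 and 43 counts), 1 of 6 tested, whereas the adult subunit Chrne had 1 and 2 counts. Chrnb1, Rapsn and Dok7 were the detected genes of that list, with 4.17 and 4.89, 1.63 and 3.64, and 1.45 and 1.70 TPM. Of 10 metabolic genes 2 were called higher, Ampd1 (3.31, with 2 and 25 counts) and Cox6a2 (1.19), and Cox7a1, Eno3 and Pygm led, with 12.2 and 19.5, 11.5 and 13.5, and 8.44 and 10.4 TPM. None of these 3 lists had a gene called lower.

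Genes of muscle cell fusion and myogenic cofactors included Mymk, the fusion protein myomaker, which was called higher (2.31, with 8 and 43 counts), also by the edgeR exact test. Over 10 genes of the list the median log2 ratio was 0.17, with 7 higher and 3 lower in replicate 2. For 8 of the 11 tested the adjusted p of the exact binomial test was 0.05 or more. The Mef2 factors, which work in many tissues, led this list and were not called, with Mef2a at 28.1 and 26.5, Mef2d at 14.6 and 16.2 and Mef2c at 13.8 and 13.0 TPM. Of 6 factors of head and oesophagus muscle progenitors 0 were called by either test. Tcf21 had 174 and 179 TPM and Isl1 24.3 and 34.7 TPM, with a log2 ratio of 0.49 for Isl1, and both are also made in other tissues of the region.

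Cardiac factors and hormones were the last list. Of 12 tested 0 were called by either test, with a median log2 ratio of -0.29 over 11 genes (4 higher and 7 lower in replicate 2), while 5 had an adjusted p below 0.05 by the exact binomial test. Of these Nkx2-5 (0.71) and Gata4 (0.51) were higher in replicate 2, and Hand1 (-0.66), Mylk3 (-0.38) and Popdc2 (-0.33) were lower. Levels within the list differed widely. Some defining heart genes were at or near 0: Bmp10, of the atrial wall, had 0 counts in both libraries, which allows up to 3 counts, Nppb had 1 and 4 counts, and Irx4, of the ventricle, had 7 and 11. Tbx5 had 35 and 22 counts, and Tbx20 had 31 and 19. The list was led by Gata4 (29.1 and 44.3 TPM), Gata6 (17.0 and 17.2 TPM) and Nkx2-5 (7.47 and 12.6 TPM). All 3 also act in the stomach and its surroundings. The other detected genes of the list were Popdc2 (11.3 and 8.09 TPM), Hand2 (8.07 and 8.37 TPM), Mylk3 (5.87 and 4.59 TPM) and Hand1 (5.69 and 3.71 TPM). The cardiac members Myl7 and Nppa, given above, were detected as well.

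**Figure D5:**
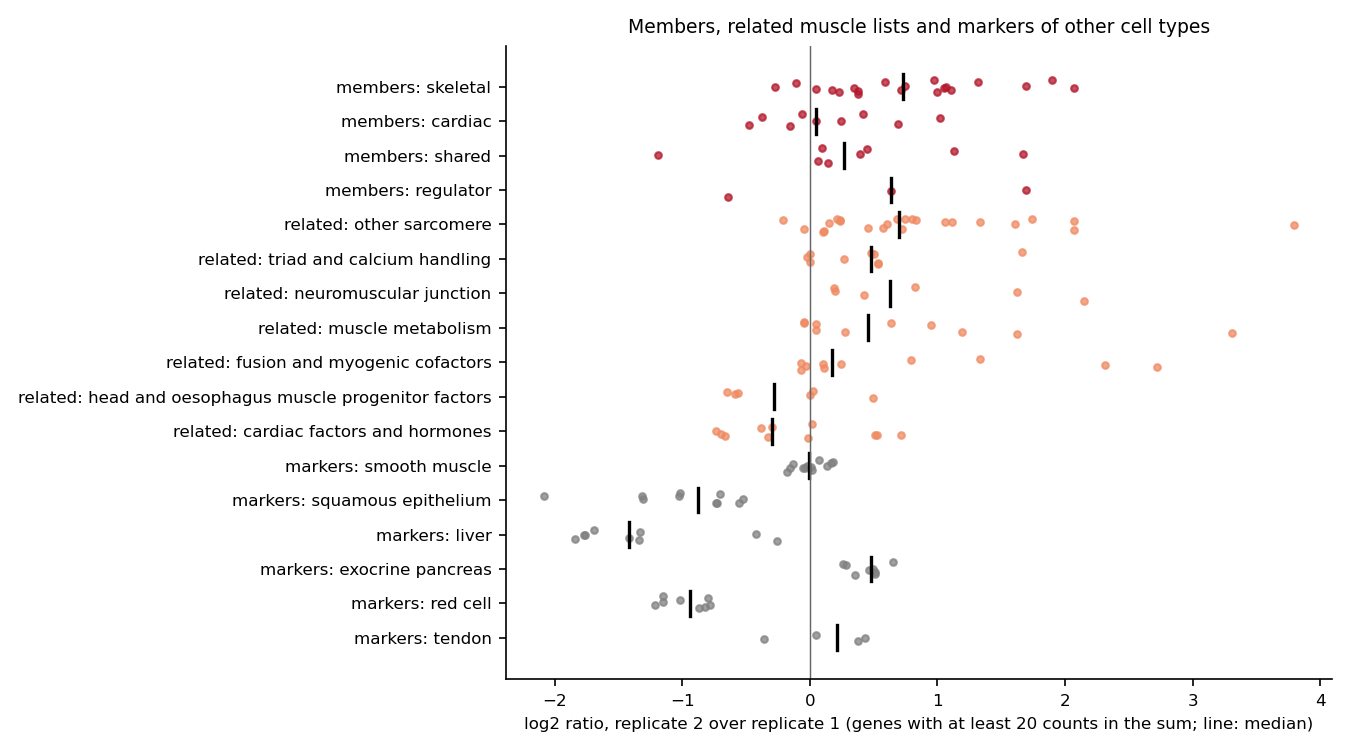
Log2 ratio of replicate 2 to replicate 1 for single genes whose counts sum to 20 or more (points) and the median of each list (black line), with members in red, related muscle lists in orange and markers of other cell types in grey. Skeletal members have a median of 0.73 and smooth muscle markers of -0.01, and squamous, liver and red cell markers lie below 0.

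Markers of other cell types also differed between the pools, in both directions. Smooth muscle markers, the contractile genes of the stomach wall itself, had log2 ratios from -0.18 to 0.18 and a median of -0.01, with 0 of 12 called and 6 of 12 higher. Lists with medians farther from 0 were squamous epithelium (median -0.88, 5 of 10 called lower), liver (-1.42, 7 of 9 called lower), red cells (-0.94, 4 of 8 called lower) and exocrine pancreas (0.48, 8 of 8 higher and 0 called). Tendon genes had a median of 0.21 with 0 of 4 called, and of 5 lung epithelium genes 1 was detected, Sftpc, at 5.28 and 3.48 TPM. The part of these cell types in the differences of the members was not tested.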

How the data were processed

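Stomach RNA above 200 nucleotides was isolated with a mirVana kit and 10 ng entered each library, with ERCC controls added, per the labels. The labels call the molecule total RNA, but their protocol link names a low-input cDNA kit. The text deposited beside the tables names the build mm10 and annotation M4. No aligner, quantification program or strand option is given in the sources used here. Per the file headers, the gene and transcript tables hold the authors' expected counts, TPM and FPKM, posterior means of count and TPM with their bounds, and the percent of each gene's TPM that a transcript holds. Counts can be fractional, because the authors' estimates divide shared reads.

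Symbols, coordinates and transcript types came from GENCODE M21 (98.0% of 43346 genes matched), and start sequences from RefSeq. Features without a symbol held 0.233% and 0.201% of the counts. Expected counts were rounded for tests. Library sizes were TMM factors over the 20918 genes whose counts summed to 10 or more. Ratios used a prior count of 0.5 and an exact binomial test with Benjamini-Hochberg adjustment over those genes. On simulated counts of 20627 genes for this comparison, 99% of 200 changed genes were recovered with 2 false calls. These counts held counting error only, and the changes were large and placed in genes with many counts. No spread between pools was simulated, so the result checks the calculation and gives no error rate for these data. Alternatives used DESeq2 size factors, library and spike-in totals, other minimums and units, and the edgeR exact test. The labels name each pool a biological replicate, and p-values measure only the difference between these 2 pools. The members, lists and tests were chosen with earlier results of these data known. Every member is named, and other genes were named if they led a list, were called or were a defining marker near 0; further genes were named after their values were seen. A few results that met this rule are not reported here. Tools were Python 3.11.15, R 4.3.3, edgeR 4.0.16 and DESeq2 1.42.0.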

Additional observations from a re-analysis of the deposited data

How the results depend on the processing

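No paired analysis was possible because the series holds 1 group, and no library can be left out of a ratio between 2 libraries. The number of detected members, 27, ranged from 19 to 32 over the thresholds and units tried and from 27 to 31 in single libraries. Among members with at least 1 TPM only, median TPM was 5.90 over all members, 8.49 for skeletal, 6.61 for cardiac and 2.265 for regulator members, since low members are then left out. The shared median was 3.87 with posterior mean TPM and 3.68 as a mean of log2 values, and the regulator median 0.393 as such a mean. The log2 ratio of skeletal to cardiac medians was 0.50 with CPM, 0.34 with members of at least 1 TPM and -0.42 to 0.29 in single libraries. That of shared to cardiac was 0.90 with CPM, 0.48 with posterior means, 0.35 with means of logs and -0.92 with members of at least 1 TPM. That of skeletal to regulator was 3.77 with CPM, 2.12 with members of at least 1 TPM, and 2.51 with means of logs. With posterior mean TPM the shares of Myh1, Myh2 and Myh6 were 2.62%, 0.41% and 12.6%.

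Members called higher numbered 5 with spike-in totals, 21 without the 2-fold limit and 5 by the edgeR exact test. Members called lower numbered 4 with spike-in totals, 0 by the edgeR exact test and 0 with protein-coding transcripts, an alternative chosen after seeing the data, where the exact binomial test had called 1. Spike-in totals lowered every log2 ratio by 0.68. The median became -0.27 over all members, 0.051 for skeletal, -0.63 for cardiac, -0.41 for shared and -0.042 for regulator members. Over all genes tested it was -0.68 with these sizes, and the share of them called is not given here. The ratio turned negative for Tnnt1 (-0.33), Tnni2 (-0.30), Casq1 (-0.63), Ryr1 (-0.091), Mybpc2 (-0.45), Chrna1 (-0.30), Cacna1s (-0.51), Myl7 (-0.44), Tnnt2 (-0.26), Ryr2 (-0.63), Myh7 (-0.58), Myl3 (-0.62), Tnnc1 (-0.28), Cav3 (-0.23), Ckm (-0.54) and Myod1 (-0.042). The regulator median was 1.17 with a minimum of 50 or of 10 counts. With protein-coding transcripts Cacna1s had -0.042 and Tnni3 0.058. Why the share of spike-ins differed between the libraries was not tested, and neither was the cause of the other shifts. DESeq2 size factors, posterior mean counts and coding genes alone kept the direction and call of all 41 tested members.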
